A study of Mus musculus with 2 samples.

Results

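The mitochondrial chromosome of the mouse encodes 37 genes, and their transcripts were described here in the liver of B6NCrl mouse embryos at 14.5 days of development. The members were all gene rows whose mouse Ensembl identifier maps to a symbol beginning with mt-, which gave 37 of 43346 mouse gene rows: 13 mRNAs, 2 ribosomal RNAs and 22 transfer RNAs. Total RNA above 200 nucleotides was sequenced from 10 ng per library, with synthetic spike-in RNAs added, in 2 biological replicates of a single group. Per the labels, replicate 1 was collected on 17 July 2014 and replicate 2 on 15 July 2014. Each sample is described there as a single liver of 1 pup and also as pooled male and female, both samples carry 1 donor identifier, and no treatment or genetic change is named. Whether the samples come from separate animals is thus unclear, and each is called a liver below after its label. With no second group there was nothing to test against, so no p-value is given, and the spread between the livers may in part be technical. Values are the estimated (expected) counts of reads per gene and TPM, the length-scaled share of transcripts in a library, as deposited.

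Mitochondria keep a small circular genome that is read from both strands as long precursor RNAs. The tRNAs lie between the mRNAs and rRNAs, and cutting them out releases the other RNAs. All of its mRNAs encode core subunits of the oxidative phosphorylation complexes, whose remaining subunits are encoded in the nucleus, and its rRNAs form the mitochondrial ribosome. The fetal liver holds both hepatoblasts and the developing blood cells. Stretches of mitochondrial DNA have also been copied into nuclear chromosomes during evolution, and such nuclear copies can have nearly the same sequence as the genes they came from.

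The library of replicate 1 totalled 39998450 estimated reads, with 37059776 on mouse genes, and that of replicate 2 totalled 28848861, with 26908926 on mouse genes. The hepatoblast and erythroid markers were present in both livers, led by Afp at 6637 ± 310 TPM and Hbb-bs at 79324 ± 1946 TPM (SD, n = 2). Of the markers of heart and skeletal muscle, tissues rich in mitochondria, 0 of 5 and 0 of 4 reached 1 TPM in both livers. Their summed levels were 1.30 and 1.25 TPM for heart and 0.85 and 0.27 TPM for skeletal muscle in replicates 1 and 2. In the same order, 5 neutrophil markers summed to 2427 and 1743 TPM and 4 megakaryocyte markers to 523 and 651 TPM. The part of these cells in the mitochondrial values was not tested, and in whole tissue fewer cells of a type and less RNA per cell cannot be told apart.

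The results turn on a block of nuclear sequence. On chromosome 1 of the mm10 build, 7 unprocessed pseudogenes lie within 4663 bases (chr1:24611535-24616197, all on the minus strand) and match the mitochondrial mRNAs from mt-Co1 to mt-Nd4. Among the mRNAs of that stretch, no copy of mt-Atp8 is annotated there. Transcript sequences of GENCODE M21 (mm10) were compared, and 5 of the 7 copies were identical to the mitochondrial gene over their whole length. The ends of the genes, 5′ to 3′, are shown because they are where the annotated rows of gene and copy differ. Whether chromosome 1 continues with the same bases past the end of the copy's row was not checked. Capitals mark the bases that the copy's row lacks.
mt-Co3 (chrM:9361-9390, plus strand): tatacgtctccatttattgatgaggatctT
Gm28437, copy of mt-Co3 (chr1:24613189-24613217, minus strand): tatacgtctccatttattgatgaggatct
mt-Co2 (chrM:7667-7696, plus strand): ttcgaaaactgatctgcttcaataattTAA
Gm28661, copy of mt-Co2 (chr1:24614885-24614911, minus strand): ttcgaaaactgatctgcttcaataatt
mt-Atp6 (chrM:8578-8607, plus strand): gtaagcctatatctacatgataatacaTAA
Gm10925, copy of mt-Atp6 (chr1:24613974-24614000, minus strand): gtaagcctatatctacatgataataca
mt-Nd4l (chrM:10144-10173, plus strand): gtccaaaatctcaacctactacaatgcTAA
Gm10222, copy of mt-Nd4l (chr1:24612407-24612433, minus strand): gtccaaaatctcaacctactacaatgc
The row of Gm28437 stops 1 base before the end of mt-Co3, and those of Gm28661, Gm10925 and Gm10222 stop 3 bases before, at the stop codon of the mitochondrial gene. Gm28439 covers the first 876 of the 1378 bases of mt-Nd4 without a mismatch.

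The other 2 copies differ from their genes only at their first bases, shown here with the differing bases in capitals.
mt-Nd3 (chrM:9459-9488, plus strand): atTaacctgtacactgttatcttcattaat
Gm28438, copy of mt-Nd3 (chr1:24613090-24613119, minus strand): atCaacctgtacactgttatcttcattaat
mt-Co1 (chrM:6381-6420, plus strand): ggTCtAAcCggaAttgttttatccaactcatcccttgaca
Gm29216, copy of mt-Co1 (chr1:24616158-24616197, minus strand): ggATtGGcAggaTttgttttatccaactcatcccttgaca
Counted from 1 at the first base of the copy, with the mitochondrial base first, Gm28438 carries T3C and lacks the last 3 bases of mt-Nd3. Gm29216 carries T3A, C4T, A6G, A7G, C9A and A13T against the matching part of mt-Co1, and equals it over the rest of its 492 bases, to the end of mt-Co1.

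A 100-base stretch of sequence, the window to which the deposited effective lengths correspond (length minus 99), could therefore rarely separate the pairs. Of the windows of mt-Co3, 1 of 685 was absent from every nuclear row, against 3 of 585 for mt-Co2, 3 of 582 for mt-Atp6, 3 of 198 for mt-Nd4l and 6 of 249 for mt-Nd3. mt-Nd4 had 502 such windows of 1279 and mt-Co1 had 1000 of 1446. From the other side, the copies of mt-Co3, mt-Co2, mt-Atp6, mt-Nd4l and mt-Nd4 had 0 windows that their mitochondrial gene lacked, Gm28438 had 3 of 246 and Gm29216 had 13 of 393. Within most of these pairs, reads of the gene and of the copy cannot be told apart, and the counts of each are the counting model's division of shared reads.

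That division differed widely between pairs that are alike in sequence. The copy received 75.7% of the pair's reads in replicate 1 and 81.7% in replicate 2 for mt-Co3, 77.7% and 82.7% for mt-Nd3, and 77.5% and 85.7% for mt-Nd4l. For mt-Co2 it received 42.9% and 50.3%, for mt-Co1 19.2% and 19.3%, and for mt-Atp6 2.95% and 1.96%. Gm28439, the copy of mt-Nd4, received 2.96 and 3.07 reads, beside 44231 and 33911 on mt-Nd4 itself. Together the 7 copies held 265025 and 201833 reads, which is 0.715% and 0.750% of the reads on mouse genes. Summed over gene and copy, the estimated reads were whole numbers at the 2 decimals deposited for mt-Atp6, mt-Co3, mt-Nd3, mt-Nd4l and mt-Nd4 in both livers, while the reads of each of these rows alone were not.

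The deposited posterior SD, the counting model's own spread of each estimated count, was large for the 5 genes that share nearly all of their sequence. It was 99.2% and 134% of the expected count for mt-Co3 in replicates 1 and 2, 38.6% and 53.0% for mt-Nd4l, 27.5% and 32.0% for mt-Co2, 19.3% and 16.2% for mt-Nd3, and 10.1% and 10.4% for mt-Atp6. It was below 1% for the other 8 mRNAs, mt-Nd4 and mt-Co1 included, and 0 for both rRNAs. Within the 5 genes it did not follow the shared share of windows. The posterior mean of mt-Co3, a second estimate of the same model, was 99976 and 66300 reads, against expected counts of 62029 and 32838. On Gm10925, the copy of mt-Atp6, it was 28414 and 19755 reads, against expected counts of 5236 and 2496. In the plot of shared sequence, the 5 genes with more than 97% of their windows in a nuclear row are the 5 with a posterior SD above 10%.

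**Figure D1:**
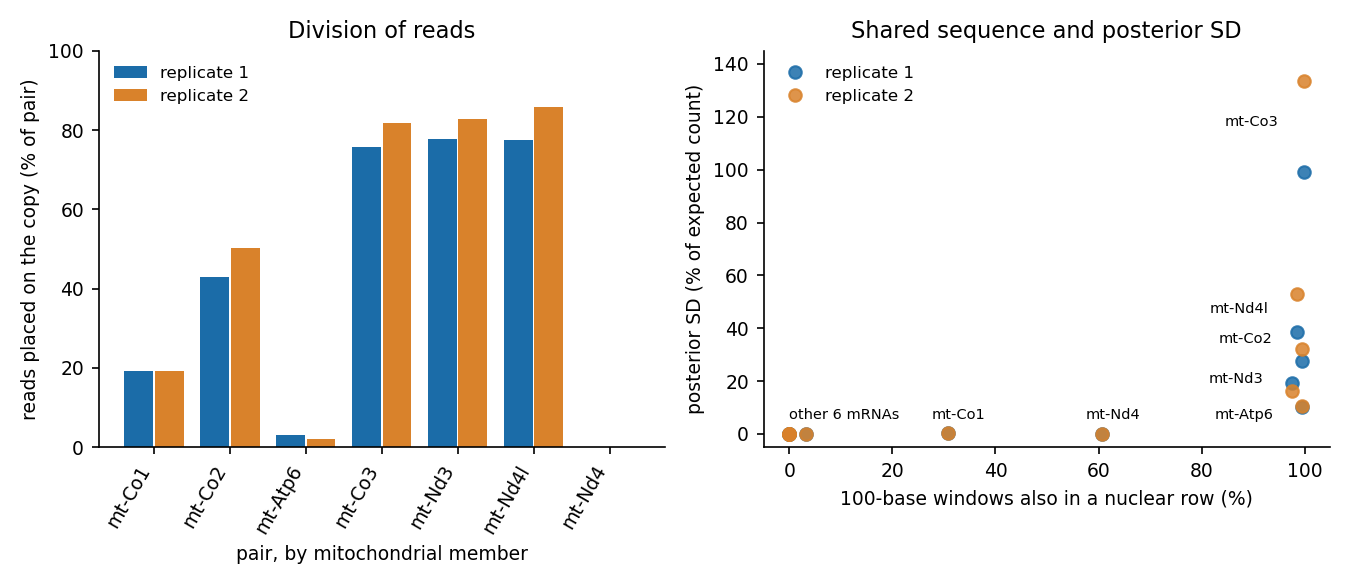
Left: share of the reads of each gene and copy pair that was placed on the chromosome 1 copy (percent of the pair's expected counts), by mitochondrial member, for replicate 1 and replicate 2. Right: posterior SD of each mitochondrial mRNA's count (percent of its expected count) against the percent of its 100-base windows that also lie in a nuclear row; 5 genes lie above 97% on the horizontal axis and mt-Co3 is highest at 99.2% and 134%.

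For this reason the levels below are given for the mitochondrial row as deposited. A second scale, where a chromosome 1 copy is annotated, places all reads of the pair on that row, over its effective length. The first takes the model's division of shared reads as it is, and the second takes every shared read as mitochondrial. This second scale was added after the data were seen.

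As deposited, the 37 rows held shares of 3.19% (replicate 1) and 3.18% (replicate 2) of the TPM on mouse rows, with a mean of 3.186% ± 0.0036 (SD, n = 2), and 2.40% of mouse reads in replicate 1 and 2.33% in replicate 2. With the 7 copies' rows added, the shares were 4.40% and 4.50% of mouse TPM, and 3.11% and 3.08% of reads. The mRNAs took 2.69% and 2.70% of TPM and the rRNAs 0.494% and 0.484%. In these libraries, reads on mRNAs outnumbered those on rRNAs by 2.56-fold and 2.68-fold, and by 3.62-fold and 3.86-fold with the copies. No source used here says whether poly(A) RNA was selected or rRNA removed before sequencing. The balance of mRNA and rRNA is thus that of the libraries and may not be that of the tissue. This limit also holds for the RNAs compared below. Of the 37 rows, 15 were at 1 TPM or more in both livers, against 26.2% of all mouse gene rows. These were the 13 mRNAs and 2 rRNAs, and 14 of the 15 stood among the 341 highest mouse rows by mean TPM, with mt-Nd4l at rank 941.

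mt-Rnr2, the rRNA of the large mitochondrial ribosomal subunit (chrM:1094-2675), had 3462 and 3394 TPM in replicates 1 and 2. mt-Rnr1, the rRNA of the small subunit (chrM:70-1024), stood at 968 and 976 TPM. The 2 are neighbours separated by 1 tRNA gene on the same strand, and mt-Rnr2 was 3.58-fold and 3.48-fold the higher, a gap far larger than the spread between the livers. Neither shares a 100-base window with an annotated nuclear row, so these levels do not depend on the division of reads. They may depend on any selection or removal of RNA before sequencing, which is not stated.

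mt-Atp6 and mt-Atp8 encode the 2 ATP synthase (complex V) subunits of the mitochondrial genome and lie on 1 mRNA. mt-Atp6 (chrM:7927-8607) had 7071 and 7379 TPM in replicates 1 and 2, the highest mitochondrial row in both livers and sixth among all mouse rows, and 7286 and 7527 TPM with all reads of its pair. The counting model's own TPM interval, also deposited, was lower, at 4955 to 6983 and 5048 to 7166. That of mt-Co3 (1093 to 7161 and 1137 to 7408) overlaps it, so the model leaves this rank unsure. mt-Atp8 (chrM:7766-7969) had 4893 and 5022 TPM. Their coding sequences overlap by 43 bases in different reading frames, shown with the start codon of mt-Atp6 and the stop codon of mt-Atp8 in capitals.
mt-Atp8 and mt-Atp6 overlap (chrM:7927-7969, plus strand): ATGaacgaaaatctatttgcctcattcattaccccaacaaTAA
The ratio of mt-Atp8 to mt-Atp6 was 0.692 and 0.681 in TPM, nearly the same in both livers, but it was 0.417 and 0.410 in reads per base of full length. mt-Atp8 is only 204 bases long, so the deduction of 99 leaves an effective length of 105, and the ratio rests on that choice. The overlap is shorter than 100 bases, so the rows share no 100-base window, and the posterior SD of mt-Atp8 was 0 in both livers.

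The 3 cytochrome c oxidase (complex IV) subunits form the catalytic core of the enzyme. mt-Co3 (chrM:8607-9390) had 2165 and 1650 TPM in replicates 1 and 2 as deposited, and 8929 and 8991 TPM with all reads of its pair. It was thus the sixth mRNA by mean level on the first scale and the first on the second. mt-Co2 (chrM:7013-7696) had 2166 and 1885 TPM as deposited, and 3797 and 3795 TPM with the pair's reads. mt-Co1 (chrM:5328-6872) had 807 and 1014 TPM as deposited, and 999 and 1256 TPM with the pair's reads. On both scales mt-Co1 was the lowest of the 3.

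mt-Cytb (chrM:14145-15288), the only mitochondrial subunit of complex III, had 2309 and 2521 TPM in replicates 1 and 2, and no copy of it lies in the chromosome 1 block. Its mRNA and those of mt-Co3 and mt-Nd4 are annotated with an unfinished stop codon: their lengths leave 1 base over after the last whole codon, and that base, in capitals here and for mt-Co3 above, is T.
mt-Cytb (chrM:15269-15288, plus strand): aatactaaaattatatccaT
mt-Nd4 (chrM:11525-11544, plus strand): aattacaggcctgacaataT
In mitochondria such a stop is completed by the poly(A) tail added after cutting, so the last bases of the mature mRNA are not in the reference sequence that reads were counted on. Of the other 10 mRNAs, 8 end in TAA and 2, mt-Nd1 and mt-Nd2, in TAG. The start codon is ATG in 9 mRNAs, and GTG, ATA, ATT and ATC in mt-Nd1, mt-Nd2, mt-Nd3 and mt-Nd5.

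The mitochondrial genome encodes 7 subunits of complex I (NADH dehydrogenase). mt-Nd1 (chrM:2751-3707), which lies in the membrane arm near the quinone site, was the highest of them with 2361 and 2440 TPM in replicates 1 and 2. mt-Nd4 (chrM:10167-11544) had 827 and 912 TPM, the same to the whole number with the pair's reads, and mt-Nd2 (chrM:3914-4951) had 586 and 611 TPM; both are among the proton-pumping subunits. mt-Nd5 (chrM:11742-13565), the longest of the mRNAs and the last subunit of the pumping arm, had 264 and 309 TPM. mt-Nd3 (chrM:9459-9806) had 315 and 225 TPM as deposited, and 1412 and 1297 TPM with all reads of its pair. mt-Nd4l (chrM:9877-10173), the smallest complex I subunit encoded here, had 108 and 80.6 TPM as deposited, and 481 and 564 TPM with the pair's reads. The last 7 bases of mt-Nd4l, in capitals, are the first 7 of mt-Nd4, and both are read from 1 mRNA.
mt-Nd4l and mt-Nd4 overlap (end of mt-Nd4l, chrM:10154-10173, plus strand): tcaacctactacaATGCTAA
mt-Nd4l stood at 0.131 and 0.0884 of the TPM of mt-Nd4 in replicates 1 and 2 as deposited, but at 0.582 and 0.618 with the pair's reads, and the second scale brought the livers closer.

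mt-Nd6 (chrM:13552-14070), another membrane subunit of complex I, is the only mRNA encoded on the opposite strand to the other 12. It had 280 and 318 TPM in replicates 1 and 2 and no annotated copy on chromosome 1. On the log2 scale it stood at -2.42 and -2.06 against the median of the other 12 mRNAs, and at -2.73 and -2.55 when these had all reads of their pairs. It is richer in G than in C, with 28.1% G and 5.97% C, against 5.88% to 16.1% G and 22.1% to 29.97% C in the other 12. Its last 14 bases, shown with the stop codon in capitals, overlap the end of mt-Nd5 on the other strand.
mt-Nd6 and mt-Nd5 overlap (chrM:13552-13565, minus strand): ttactcgagatTAA
The sources used here do not state strand-specific counting, so reads from RNA antisense to mt-Nd6 may be in its count.

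Ordered by mean TPM, the mRNAs as deposited ran mt-Atp6, mt-Atp8, mt-Cytb, mt-Nd1, mt-Co2, mt-Co3, mt-Co1, mt-Nd4, mt-Nd2, mt-Nd6, mt-Nd5, mt-Nd3 and mt-Nd4l. The ranges of the 2 livers overlapped for 5 of the 12 neighbouring pairs in this order: mt-Cytb and mt-Nd1, mt-Co2 and mt-Co3, mt-Co1 and mt-Nd4, mt-Nd6 and mt-Nd5, and mt-Nd5 and mt-Nd3. These ranges leave out the model's uncertainty in dividing reads. Its deposited TPM interval for mt-Co2 in replicate 1 (1724 to 3508) includes that of mt-Nd1 (2313 to 2344). In replicate 2 those of mt-Nd3 (173 to 315) and mt-Nd4l (43.1 to 204) overlap. With all reads of the pairs, the order began with mt-Co3, mt-Atp6, mt-Atp8 and mt-Co2, mt-Nd3 moved from position 12 to 7, and only mt-Cytb and mt-Nd1, and mt-Nd6 and mt-Nd5, overlapped. The highest mRNA exceeded the lowest by 65.2-fold and 91.5-fold as deposited, and by 33.8-fold and 29.1-fold with the pairs' reads. In the plot along the chromosome, the highest levels on the second scale form a run from mt-Co2 to mt-Co3.

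**Figure D2:**
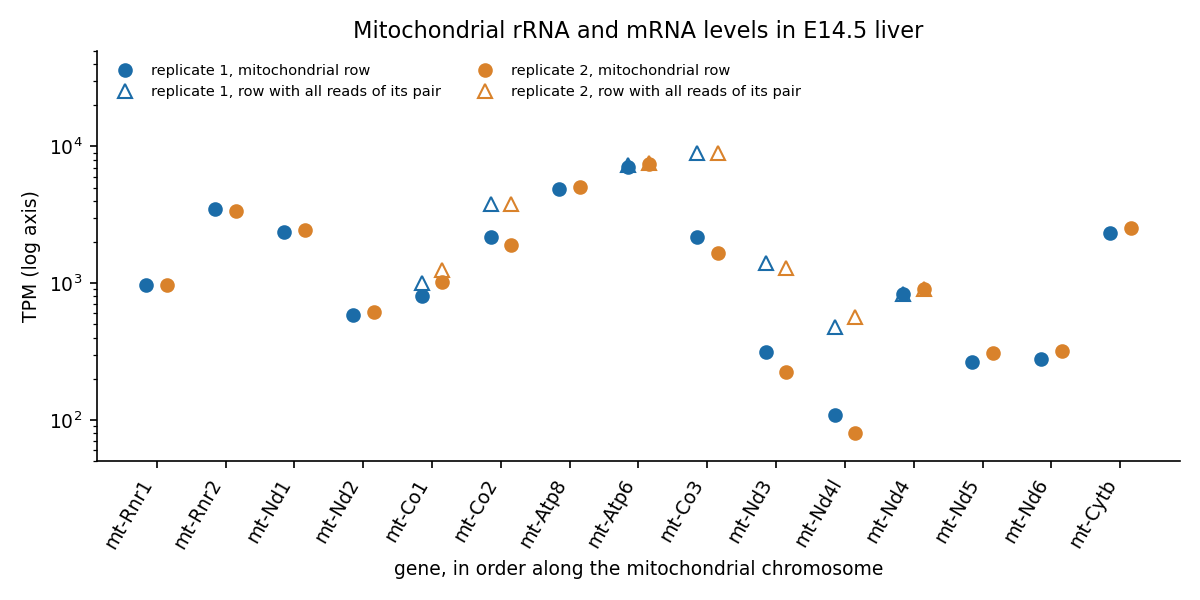
TPM (log axis) of the 2 rRNAs and 13 mRNAs in their order along the mitochondrial chromosome, for replicate 1 and replicate 2. Filled circles are the deposited rows and open triangles the rows with all reads of their pair; mt-Co3 lies at 2165 and 1650 TPM as a circle and at 8929 and 8991 TPM as a triangle.

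All 15 detected members averaged at least 10 TPM. Of these, 0 reached a 1.5-fold difference between replicate 2 and replicate 1, against 0.897% of the 5576 mouse genes at that level. At 2-fold the number was again 0, against 0.251% of those genes. Such differences were rare among all genes, so a count of 0 in 15 is not particular to the mitochondrial RNAs. With CPM scaled by TMM or by DESeq2 size factors, 1 member, mt-Nd3, passed 1.5-fold, with log2 ratios of -0.60 and -0.59. The log2 ratios, replicate 2 over replicate 1 with a pseudocount of 1, had a median of 0.059 over the 13 mRNAs and of 0.093 over the 5576 genes, and 5 of the 13 lay above 0.093. With TMM factors both medians fell below 0, to -0.059 for the mRNAs and -0.017 for all genes. The 10th and 90th percentiles of the genes were -0.079 and 0.265 in TPM. As deposited, mt-Nd3, mt-Nd4l, mt-Co3 and mt-Co2 lay below the lower one and mt-Co1 above the upper one, while with the pairs' reads mt-Nd3 and mt-Co1 still lay outside.

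The lowest ratios belonged to the genes whose copies received the largest shares of the pair's reads. Whether the division lowered these ratios was not tested. As deposited, the log2 ratio was -0.48 for mt-Nd3, -0.42 for mt-Nd4l, -0.39 for mt-Co3 and -0.20 for mt-Co2. With all reads of the pairs it was -0.12 for mt-Nd3, 0.23 for mt-Nd4l, 0.01 for mt-Co3 and 0.00 for mt-Co2. In 5 of 7 pairs the livers were closer in TPM with the pair's reads, the exceptions being mt-Co1 and mt-Nd4. Among the 5, mt-Atp6 went from 0.062 to 0.047, which is away from the median of all genes (0.093). The 6 mRNAs without an annotated chromosome 1 copy ranged from 0.04 for mt-Atp8 to 0.22 for mt-Nd5. With the pairs' reads, 6 of the 13 mRNAs lay above the median of all genes. The TPM ratio of mt-Nd5 was 1.17, with a 95% counting interval of 1.14 to 1.19, and that of mt-Nd6 was 1.14 (1.09 to 1.19). That of mt-Cytb was 1.09 (1.08 to 1.10) and that of mt-Nd1 was 1.03 (1.02 to 1.04). These ratios are on the TPM scale, where the median log2 ratio of all genes was itself 0.093: mt-Nd1 (0.05) lay below that median and mt-Cytb (0.13), mt-Nd6 (0.19) and mt-Nd5 (0.22) above it.

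mt-Co1 had the largest ratio on both scales, 0.33 (log2), with 60439 reads on the pair in replicate 1 and 52786 in replicate 2. This is a ratio of 1.26 in TPM with a 95% counting interval of 1.24 to 1.27, and with 1 library per liver it cannot be told apart from a difference between preparations. Relative to the median of all genes it was 0.23 to 0.25 higher (log2) under each of the 7 scalings, pseudocounts and count estimates tried. That agreement is no check of the difference. A library's scaling factor moves all genes alike and cancels here, and the pseudocounts are small beside the level of mt-Co1. Its posterior means also lie close to its expected counts. For mt-Co3 the ratio with the pair's reads was 1.01 (1.00 to 1.01), and for mt-Rnr2 it was 0.980 (0.974 to 0.987).

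**Figure D3:**
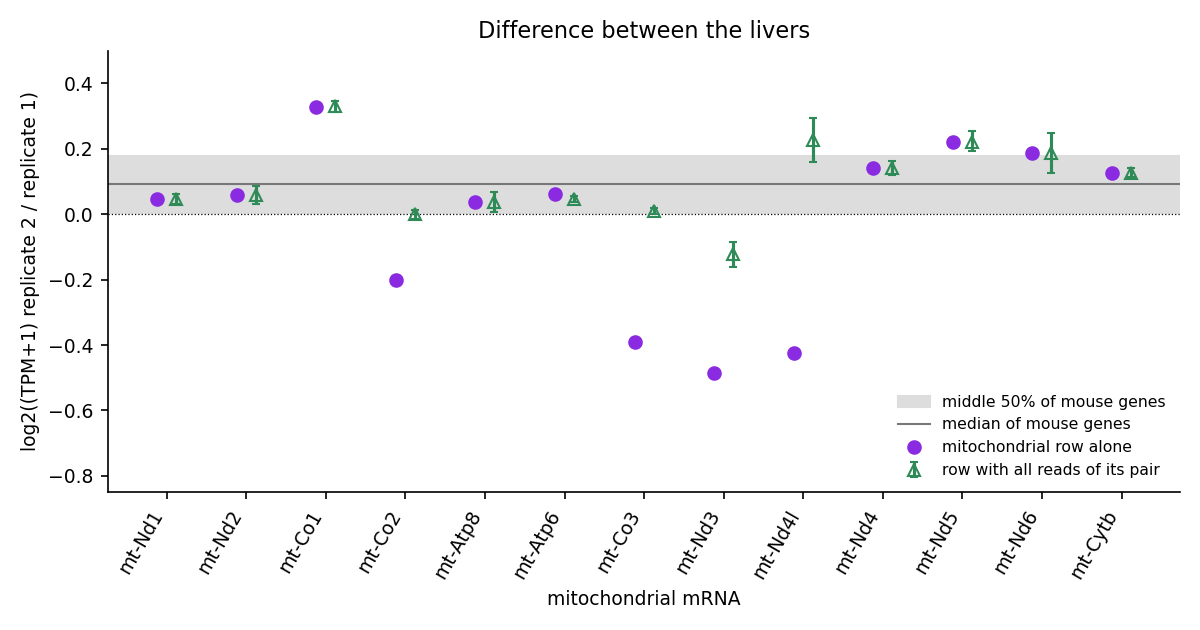
Log2 ratio of TPM plus 1, replicate 2 over replicate 1, for the 13 mitochondrial mRNAs. Circles are the deposited rows, triangles the rows with all reads of their pair, with 95% counting intervals; the grey line and band are the median (0.093) and the middle 50% of 5576 mouse genes, and mt-Co3, mt-Nd3 and mt-Nd4l lie between -0.48 and -0.39 as circles only.

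All 22 tRNA rows were listed at 0 reads and 0 TPM in both livers. Their transcripts are 59 to 75 bases long, and each has an effective length of 0, since the deduction of 99 exceeds the length. The same held for every one of the 2218 mouse rows of 99 bases or less, of which 0 had reads. RNA below 200 nucleotides was also not used for the libraries, per the labels. The shortest, the serine tRNA mt-Ts2, and the longest, the leucine tRNA mt-Tl1, are shown to make the scale plain.
mt-Ts2 (chrM:11613-11671, plus strand): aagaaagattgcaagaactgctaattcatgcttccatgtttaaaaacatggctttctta
mt-Tl1 (chrM:2676-2750, plus strand): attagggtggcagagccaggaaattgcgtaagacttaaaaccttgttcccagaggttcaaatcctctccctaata
A 0 in these rows is therefore no measurement of the tRNAs. Of the 22, 14 lie on the plus and 8 on the minus strand. Over the chromosome, 12 of the 36 junctions between neighbouring genes have no base between them, 9 overlap, and the largest gap is 32 bases, so reads from uncut precursors can cross gene ends.

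By median, the mRNAs of mitochondrial subunits stood above those of the listed nuclear subunits in each complex. In complex I the median was 315 and 318 TPM for the 7 mitochondrial mRNAs in replicates 1 and 2 as deposited, and 586 and 611 TPM with the pairs' reads, against 128 and 132 TPM for 7 nuclear core subunit genes. The ratio to the nuclear median was thus 2.47 and 2.42 as deposited and 4.60 and 4.64 with the pairs' reads. Among the nuclear genes, Ndufs7 was highest (228 ± 9 TPM) and Ndufs1 lowest (95.01 ± 8.43 TPM). In complex III, mt-Cytb was 13.4-fold and 13.7-fold above the median of 4 nuclear subunits, of which the core gene Uqcrc1 was highest at 251 ± 14 TPM. In complex IV the mitochondrial median was 2165 and 1650 TPM as deposited, and 3797 and 3795 TPM with the pairs' reads, against 472 and 459 TPM for 10 nuclear subunits. In complex V the 2 mitochondrial subunits had medians of 5982 and 6201 TPM as deposited, and 6090 and 6274 TPM with the pairs' reads, against 394 and 384 TPM for 9 nuclear ones, and Atp5b, the catalytic beta subunit, reached 1540 ± 51 TPM. The nuclear genes were listed for their known place in each complex and are not all of its subunits.

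**Figure D4:**
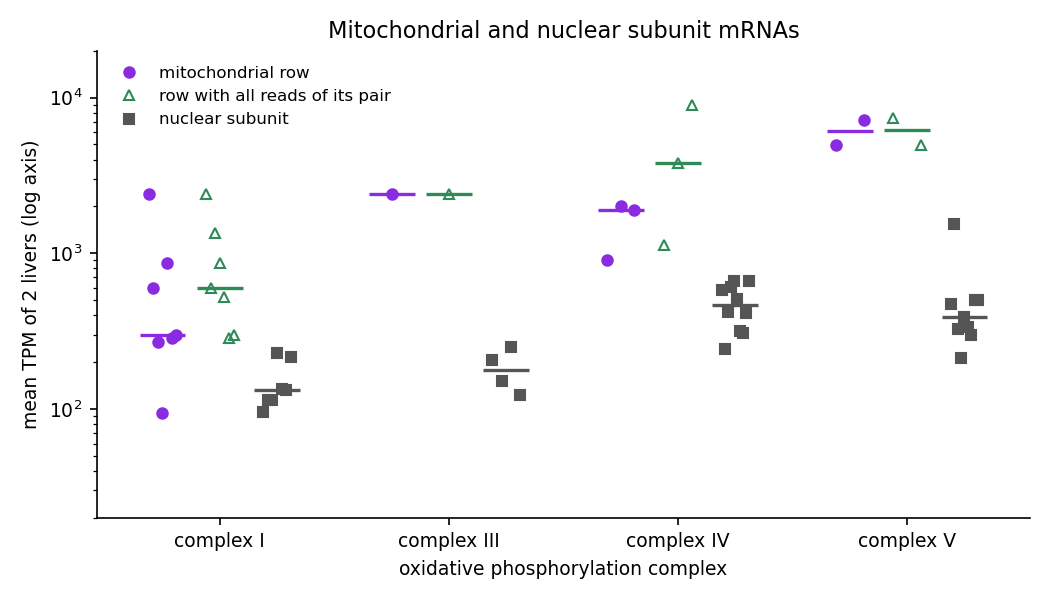
Mean TPM of 2 livers (log axis) for each subunit mRNA of complexes I, III, IV and V, with the median of each set as a bar. Circles are mitochondrial rows, triangles the same with all reads of their pair, squares nuclear subunits; mt-Nd4l, as a circle, has a mean of 94.5 TPM and lies just below Ndufs1, the lowest nuclear subunit of complex I, at 95.01 TPM.

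The listed nuclear genes that make and process mitochondrial RNA were all detected. For transcription and upkeep of the mitochondrial genome, 16 of 16 genes were at 1 TPM or more in both livers, with a median of 7.57 TPM, beside 9.66 TPM over all 11375 detected genes. The highest was Ssbp1, the single-strand DNA binding protein, at 56.96 ± 3.35 TPM, and the lowest Mterf1b, a termination factor gene, at 1.79 ± 0.06 TPM. The RNA polymerase gene Polrmt stood at 8.68 and 11.4 TPM and the DNA-packaging factor gene Tfam at 24.4 and 26.4 TPM in replicates 1 and 2. For RNA processing and stability, 23 of 23 were detected, with a median of 13.8 TPM. There Slirp, whose protein binds mitochondrial mRNAs together with that of Lrpprc, was highest at 148 ± 1 TPM, and Fastkd1 was lowest at 3.30 ± 0.66 TPM.

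For modification of the mitochondrial rRNAs, 8 of 8 genes were detected, with a median of 9.28 TPM, from Mettl15 at 4.51 ± 0.57 TPM to the methyltransferase gene Mrm3 at 12.9 ± 1.9 TPM. For charging of the mitochondrial tRNAs, 22 of 22 were detected, with a median of 12.2 TPM. Lars2, the leucine tRNA synthetase, stood at 782 ± 15 TPM, and the next, Gars, at 82.8 TPM. Mars2 was lowest at 1.78 ± 0.04 TPM. Of the matches to mitochondrial transcripts, only those in annotated pseudogenes were kept. Whether reads of mitochondrial RNA lie in the Lars2 value was thus not tested, and its level may not be that of the synthetase mRNA alone. The median log2 ratio between the livers was 0.12, 0.16, 0.16 and 0.08 for these 4 lists, beside 0.09 over all detected genes.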

How the data were processed

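Total RNA of 2 samples labelled as liver was measured, 1 library each. The authors deposited expected counts per gene without normalization, TPM over all rows including spike-ins, and FPKM scaled to the library total, on mm10 with GENCODE M4 per the deposited description. The percent of a gene's TPM per transcript, and other values in reads or bases (posterior mean and SD, effective length), stand beside them per the file headers. No source used here names the aligner or the counting program. Symbols came from GENCODE M21 by unversioned identifier, and the 37 members have the same identifiers, versions and lengths there.

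Mitochondrial transcripts were compared with all other M21 transcripts by blastn 2.17.0 (at least 90% identity over 100 bases). Only matches in annotated pseudogenes were kept as nuclear copies. Ratios between livers used TPM plus 1, and the background took genes averaging at least 10 TPM. The 95% counting intervals are exact for a ratio of 2 Poisson counts, cover counting error only, and assume independent reads. Alternatives were other pseudocounts, filters and units, TMM (edgeR 4.0.16) and DESeq2 1.42.0 factors on rounded counts without a test, TPM without globins, and each liver alone. Scripts ran in Python 3.11.15 and R 4.3.3, and only the ratio between livers was tested on simulated data. The members and lists were chosen with earlier results of these data known. All 37 members were named or counted, with the highest and lowest of each list; Gars, Polrmt, Tfam, Lrpprc and the copies were named after their values were seen. The counts of the 2 libraries differed by a chi-square of 12.1 per degree of freedom, so they are not 1 library deposited in duplicate. No protein sequences were used here.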

Additional observations from a re-analysis of the deposited data

How the results depend on the processing

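With 1 library per liver no result has a test, and the spread between 2 livers limits each value. No paired analysis was possible because there is 1 group. The mitochondrial share (3.186% of mouse TPM) was 2.36% by expected counts, 5.23% of TPM without globin genes, 2.87% with spike-ins in the total and 4.45% with the copies added, and 3.18% to 3.19% with 1 liver left out. On the log2 scale mt-Nd6 against the other mRNAs (mean -2.24) was -3.15 in counts without length correction and -2.64 with the pairs' reads, and -2.42 to -2.06 with 1 liver left out. mt-Atp8 over mt-Atp6 (-0.54) was -1.27 per full length, -3.01 in counts and -0.58 with the pairs' reads (-0.56 to -0.53 with 1 liver left out). mt-Nd4l over mt-Nd4 (-3.22) was -3.69, -5.91 and -0.74 on these scales (-3.50 to -2.93). mt-Rnr2 over mt-Rnr1 (1.82) was 1.88 per full length and 2.61 in counts (1.80 to 1.84), and the highest over the lowest mRNA (6.27) was 6.63, 7.83 and 4.97 (6.03 to 6.52). The median log2 ratio of the mRNAs between livers (0.059) was -0.059 with TMM and -0.056 with DESeq2 factors, which moved the median of all genes (0.093) to -0.017 and -0.014, and 0.028 without globin genes. The number of members past 1.5-fold (0) was 1 with either set of factors. The other 38 alternative values stayed within the SD, within the counting error for the median log2 ratio, or on the same count. Among them were 0 members past 2-fold and 0 tRNA rows with reads throughout. Many of these values could not have moved and are no check. With 2 livers, either one alone always lies within the SD of their mean. Shares by FPKM equal those by TPM, and tRNA rows cannot get reads at an effective length of 0. The pairs' reads and posterior means were alternatives chosen after seeing the data.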

Other observations

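Of the 17 nuclear copies found among annotated pseudogenes, 15 were in the deposited tables. The 8 of these outside the chromosome 1 block held 58.4 reads in replicate 1 and 49.9 in replicate 2 together. They lie on chromosomes 2, 4, 11 and 13 and match mt-Co1, mt-Co2, mt-Nd2, mt-Nd5, mt-Nd6 and mt-Cytb at lower identity. Of the reads placed on the 15 copies, nearly all thus lay in the 1 block described. Reads on matching transcripts of other types were not counted here.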
